A study of Mus musculus with 4 samples.

Results

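The enzymes that write and erase methyl and acetyl groups on histones were followed through early mouse development and under a morpholino against NKX1-2, a homeobox transcription factor. The set was chosen by symbol and not by level. It holds every row of the count matrices whose symbol belongs to the Kdm, Kmt2, Kmt5, Setd, Hdac, Sirt, Kat, Ezh, Ehmt, Suv39h or Prmt families, together with Eed, Suz12, Ep300, Crebbp, Carm1 and Dot1l. Kdm6a, Kdm5c and Kdm5d were left out by the same rule. This gave 84 of the 55453 genes in the files, of which 79 are protein coding and 5 are pseudogene or antisense rows.

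RNA was counted per gene in wells of 96-well plates, from embryos at the morula stage (2 plates) and at the blastocyst stage (2 plates). By the deposited assignment of barcodes, each plate carried 48 wells from embryos given a control morpholino and 48 wells from embryos given the NKX1-2 morpholino. That assignment names no plate, and the same one was taken to hold for every plate. A morpholino is an antisense oligonucleotide that blocks translation or splicing and need not lower the RNA it binds, and Nkx1-2 itself had 0 counts in each of the 8 sums described next, where as few as 3 counts over all of them would be 0.205 CPM. Both groups thus carried a morpholino, and a group without one is not analysed here. The source is labelled as single cells, and the sources used here do not give strain, genotype, embryonic day or the number of embryos behind the wells.

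Counts were summed over the 368 of 384 wells with at least 2000 detected genes, into 1 sum for the control and 1 for the NKX1-2 wells of each plate (8 sums with 1084312 to 2398605 counts). Levels are CPM, that is, counts relative to library totals scaled by TMM, and differences are log2 fold changes with their standard error (SE) from edgeR's quasi-likelihood test. A gene passed at a Benjamini-Hochberg adjusted p under 0.05 over all genes tested. The plate was the replicate (n = 2 per stage). Between the stages, p-values measure the spread between plates, which may be technical. For the morpholino, each plate's own level was fitted. Those p-values measure how the difference between NKX1-2 and control wells varies between plates, with 1 spread estimated over both stages. The stages lie on different plates, and stage and plate cannot be told apart. Summed inner cell mass and epiblast markers (all 7 detected) stood at 463 to 568 CPM in the morula and at 176 to 242 CPM in the blastocyst, and trophectoderm markers (9 or 10 of 10 detected) at 638 to 714 and at 655 to 860 CPM. Primitive endoderm markers (3 or 4 of 5 detected) were also higher in the morula, at 282 to 330 CPM against 105 to 156 CPM. Of these, Sox17, Sox7 or both had 0 counts in every sum. Oocyte transcripts, which the embryo inherits, summed to 59.8 to 83.5 CPM in the morula and to 14.8 to 26.7 CPM in the blastocyst. Cumulus cell markers were at or near 0, at most 2.05 CPM. In a sum, fewer cells of a type and less RNA per cell cannot be told apart.

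Histone tails carry methyl groups on lysines and arginines and acetyl groups on lysines. Methylation of lysine 4 of histone H3 (H3K4) marks active promoters, methylation of lysines 9 and 27 (H3K9, H3K27) marks silent chromatin, and acetylation accompanies open chromatin. Before implantation the embryo replaces oocyte RNA and proteins by its own and rebuilds these marks as the first cell types separate. Arginine methyltransferases, which modify many proteins beside histones, are also active at these stages.

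Of the 84 rows, 82 had at least 1 count and 69 were detected in every sum. Kdm4d, a demethylase known from testis, and the pseudogene Kat6b-ps2 had 0 counts in all sums. The filter on low counts left 68 rows in the fit of all 8 sums and 64 in each fit of the stages, and 16 rows were tested in no fit. Low rows included Hdac7, Hdac9, Hdac10 and Hdac11 of the class II and IV deacetylases, Prmt8, an arginine methyltransferase known from neurons, and Setd7, and 17 rows stayed under 5 CPM on average in both stages. Together the set took 3401 to 3629 CPM in the morula sums and 2638 to 3318 CPM in the blastocyst sums, and these ranges did not overlap. Such a total follows its most abundant rows. Prmt1 averaged 315 CPM in the morula and 64.7 CPM in the blastocyst sums, and Hdac1 301 and 182 CPM. Of the 64 members tested between the stages, 31 rose and 33 fell in control wells, whether or not they passed. In NKX1-2 wells 27 rose and 37 fell.

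Per kilobase of exon, Prmt1, the main enzyme for asymmetric arginine dimethylation, had the highest level of the set in the morula, at 91.9 CPM per kb. It was followed there by the class I deacetylase Hdac1 (87.5), by Prmt5 (58.6), which dimethylates arginine symmetrically, by Eed (34.3), a subunit of the H3K27 methyltransferase complex PRC2, and by Kmt5a (33.0), the enzyme that monomethylates lysine 20 of histone H4. In the blastocyst the order was Hdac1 (52.7 CPM per kb), the PRC2 subunit Suz12 (40.4), Prmt5 (39.2), Hdac2 (38.2) and Eed (35.8), and Prmt1 came 7th at 18.9 CPM per kb. Neighbours in these orders lie close, and their differences were not tested. Of Hdac1's 31-base stretches, 40.0% also occur in another gene, so its level per kb is uncertain.

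**Figure D1:**
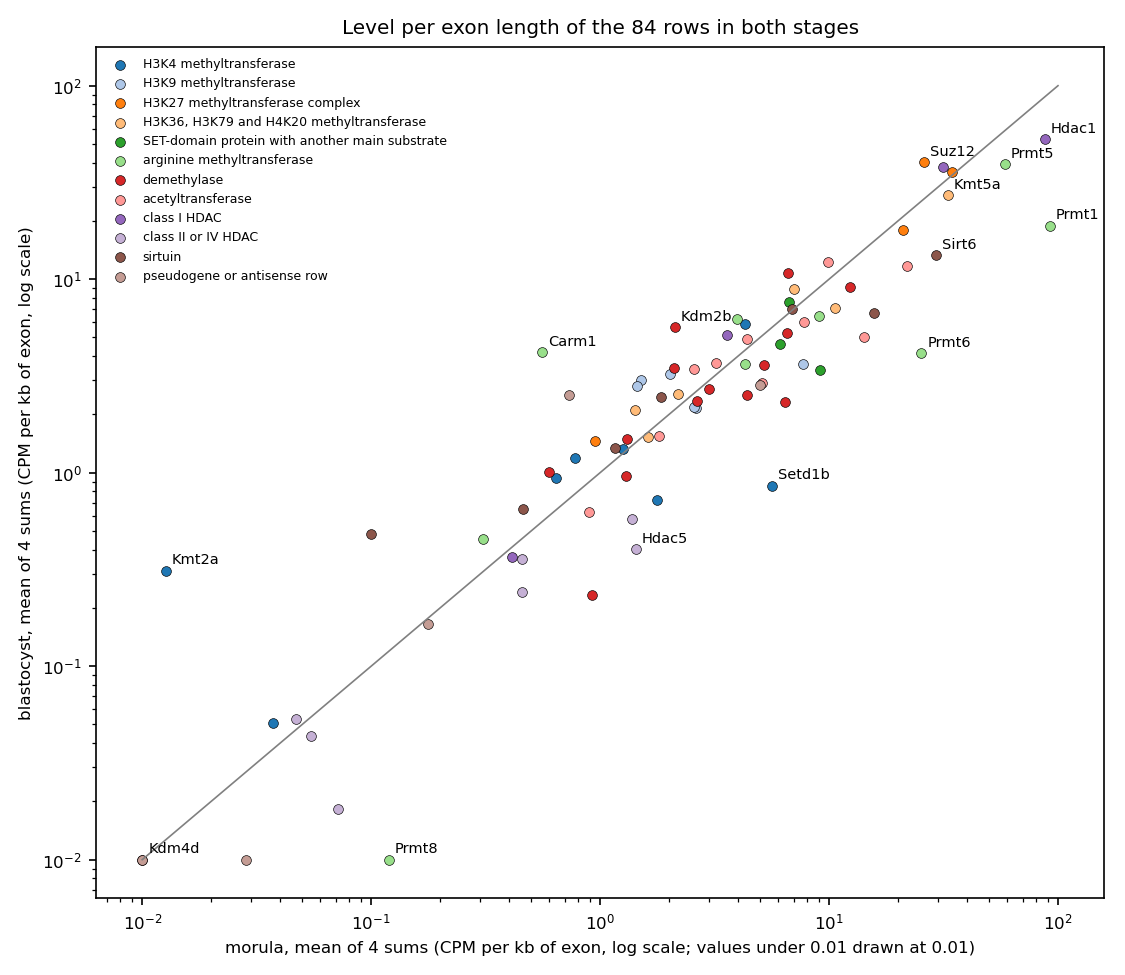
Mean level of each of the 84 rows in the 4 morula sums (horizontal axis) and the 4 blastocyst sums (vertical axis), in CPM per kb of exon on log scales, coloured by class. The line marks equal levels; Prmt1, Prmt6 and Setd1b lie below it and Carm1 lies above it.

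Between the stages, the members that fell most among those that passed were Setd1b, Prmt1 and Prmt6 in control wells and Hdac5, Prmt6 and Setd1b in NKX1-2 wells, and Carm1 rose most in both. In control wells, 23 of 64 tested members passed between morula and blastocyst, 8 higher and 15 lower in the blastocyst (35.9%). Over all 9577 genes tested in the same fit, 41.7% passed, 20.1% higher and 21.6% lower. Below, counts of genes that rose or fell are of those that passed. In NKX1-2 wells, 19 of 64 members passed, 5 higher and 14 lower (29.7%), beside 45.9% of all 10221 genes, 21.9% higher and 24.0% lower. The share of members that passed was thus below that of all genes in both fits. The median log2 fold change of the members was -0.04 in control and -0.19 in NKX1-2 wells, beside -0.01 and -0.02 over all genes. In control wells, 14 members passed without morula replicate 1 and 13 without morula replicate 2, where 26.4% and 26.2% of all genes passed, and 26 passed without blastocyst replicate 1 (37.8% of all genes). In NKX1-2 wells, 9 passed without blastocyst replicate 1 and 12 without blastocyst replicate 2, where 19.5% and 25.5% of all genes passed. A smaller share of all genes thus passed in each of these fits than with all plates. Fewer members passed as well, except in control wells without blastocyst replicate 1, where more did.

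In both fits 15 members passed, each in the same direction, which is 65.2% of the calls in control wells and 78.9% of those in NKX1-2 wells. Control and NKX1-2 sums come from the same plates, so the fits are not independent of each other. The same shares were not counted over all genes, so they do not set the members apart from other genes. Carm1, Kdm2b, Kdm5b and Suz12 rose in both, and Setd1b, Prmt1, Prmt6, Kat2a, Kmt2d, Sirt7, Ehmt2, Sirt6, Kat8, Hdac1 and Prmt5 fell in both. Among the 68 members tested in all 8 sums, 8 (11.8%) had every blastocyst sum above every morula sum and 18 (26.5%) every blastocyst sum below, where 22.3% and 24.8% of all 10873 genes did so. The set thus held a smaller share of genes that were higher in every blastocyst sum than the genes as a whole, a difference that was not tested. Some 204 genes with at least 50 counts in the blastocyst had 0 in the morula, and 85 the reverse, but no member with 10 or more counts in a stage had 0 in the other.

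**Figure D2:**
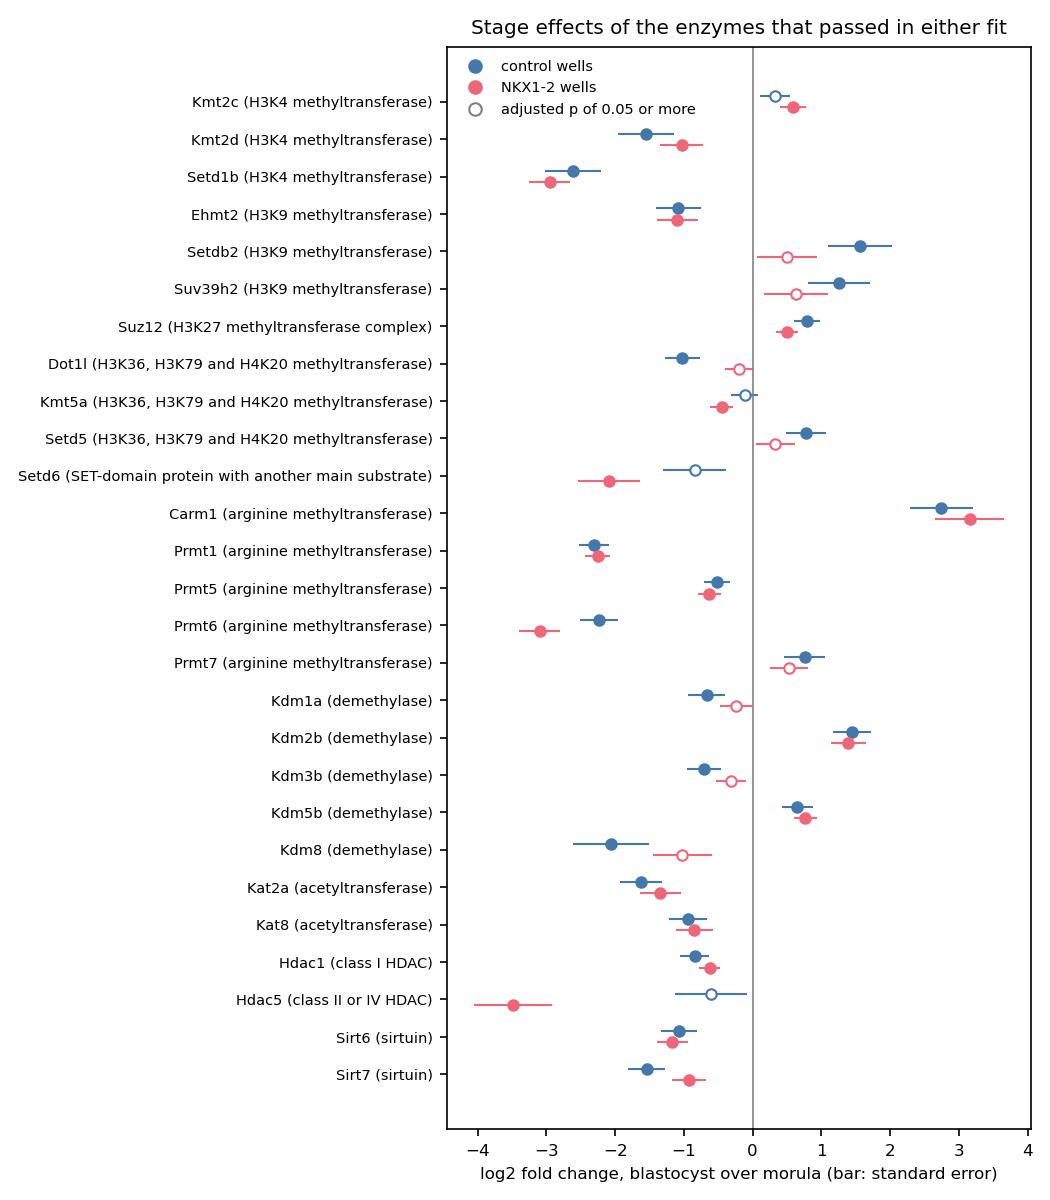
Log2 fold change, blastocyst over morula, with its standard error for the 27 members that passed in control (blue) or NKX1-2 wells (red); open circles had an adjusted p of 0.05 or more. Carm1 reaches 2.74 and 3.16, and Setd1b, Prmt1 and Prmt6 lie at -2.23 or below in both.

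The arginine methyltransferases went in both directions. Of 7 tested in control wells 2 rose and 3 fell, and in NKX1-2 wells 1 rose and 3 fell. Of all genes, 20.1% rose and 21.6% fell in control wells, and 21.9% rose and 24.0% fell in NKX1-2 wells. The classes are small, and their shares were not tested against these. Prmt1 (ENSMUSG00000109324, chromosome 7, 44975989 to 44986568, GRCm38, minus strand) stood at 300.4 and 323 CPM in the control wells and at 285 and 350.3 CPM in the NKX1-2 wells of morula replicates 1 and 2. In the blastocyst it stood at 75.7 and 51.3 CPM in control and at 55.6 and 76.2 CPM in NKX1-2 wells. Every morula sum was above every blastocyst sum, and the log2 fold change was -2.30 (SE 0.22, adjusted p = 1.19e-08, edgeR) in control wells and -2.26 (SE 0.19, adjusted p = 2.42e-08) in NKX1-2 wells.

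Prmt6, which places asymmetric methyl groups on histone H3 beside the H3K4 mark, had 95.9 and 117 CPM in control and 80.9 and 129.9 CPM in NKX1-2 wells of the morula. It had 23.5 and 21.4 CPM in control and 11.8 and 12.7 CPM in NKX1-2 wells of the blastocyst. All morula values were high and all blastocyst values low, with the NKX1-2 wells lowest. The log2 fold change was -2.23 (SE 0.27, adjusted p = 7.78e-07) in control and -3.09 (SE 0.30, adjusted p = 1.94e-07) in NKX1-2 wells. An antisense row, C130013H08Rik, overlaps 23.5% of its exon bases, and the sources used here do not say whether counting used strand.

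Carm1, a coactivator that methylates arginines of histone H3 and is known for its uneven level among early blastomeres, rested on 4 to 12 counts per morula sum and 20 to 37 per blastocyst sum. Its levels were 5.07 and 2.28 CPM in control and 1.92 and 1.56 CPM in NKX1-2 wells of the morula. In the blastocyst they were 21.3 and 28.3 CPM in control and 18.8 and 13.4 CPM in NKX1-2 wells, all above the morula. The stage effect (log2 fold change, blastocyst over morula) was 2.74 (SE 0.46, adjusted p = 5.14e-05) in control and 3.16 (SE 0.50, adjusted p = 5.87e-05) in NKX1-2 wells. Of its exon bases, 21.1% are overlapped on the other strand by Yipf2.

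Prmt5, which embryonic cells need before implantation, fell by less. It went from 223 and 243 to 177 and 146 CPM in control wells and from 202 and 259 to 151 and 146 CPM in NKX1-2 wells, without overlap. The log2 fold change was -0.52 (SE 0.19, adjusted p = 0.0305) in control and -0.63 (SE 0.17, adjusted p = 0.00468) in NKX1-2 wells. Its call in control wells ended without morula replicate 1, morula replicate 2 or blastocyst replicate 2 (adjusted p = 0.102, 0.199 and 0.193). Its call in NKX1-2 wells ended without morula replicate 2 or either blastocyst plate (adjusted p = 0.0757, 0.0871 and 0.0822).

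Prmt7, the monomethylating member of the family, rose in control wells from 22.4 and 27.4 to 40.5 and 42.9 CPM (log2 fold change 0.76, SE 0.30, adjusted p = 0.0443), and without any of the 4 plates this call ended (adjusted p from 0.0519 to 0.33). In NKX1-2 wells its log2 fold change was 0.53 (SE 0.27, adjusted p = 0.123). Prmt3, which methylates a ribosomal protein, and Prmt9 passed in neither fit. Prmt2 and Prmt8 were too low to be tested.

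Setd1b carries the catalytic domain of a complex that trimethylates H3K4 at promoters. In the morula it stood at 65.1 and 65.2 CPM in control and at 73.6 and 67.7 CPM in NKX1-2 wells, and in the blastocyst at 19.2 and 3.83 CPM and at 11.0 and 7.36 CPM. The stages did not overlap, and the blastocyst control plates differed most from each other. The stage effect was -2.61 (SE 0.41, adjusted p = 3.4e-05) in control wells, ranging from -4.06 without blastocyst replicate 1 to -1.73 without blastocyst replicate 2. In NKX1-2 wells it was -2.95 (SE 0.30, adjusted p = 3.67e-07).

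Other H3K4 methyltransferases moved less or the other way. Of 6 tested in each fit, Setd1b included, none passed as higher in control wells and 1 did in NKX1-2 wells. The 2 that fell in each fit were Setd1b and Kmt2d. Over all genes, 41.7% and 45.9% passed in these fits. Kmt2d, which monomethylates H3K4 at enhancers, went from 22.4 and 49.3 to 11.7 and 12.3 CPM in control wells and from 28.0 and 41.6 to 17.2 and 16.7 CPM in NKX1-2 wells. Its log2 fold change was -1.55 (SE 0.41, adjusted p = 0.00438) in control and -1.03 (SE 0.31, adjusted p = 0.0119) in NKX1-2 wells. Without morula replicate 2, the higher plate, it was -0.92 in control wells (adjusted p = 0.214) and -0.75 in NKX1-2 wells (adjusted p = 0.147), and the NKX1-2 call also ended without either blastocyst plate (adjusted p = 0.119 and 0.114).

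Kmt2c, the paralog of Kmt2d, rose in NKX1-2 wells from 73.2 and 97.6 to 124 and 131 CPM (log2 fold change 0.58, SE 0.19, adjusted p = 0.0181), and in control wells its log2 fold change was 0.32 (SE 0.22, adjusted p = 0.257). The NKX1-2 value was 0.36 without morula replicate 1 (adjusted p = 0.235), and the call also ended without either blastocyst plate (adjusted p = 0.108 and 0.14). Kmt2b, known for H3K4 methylation in the oocyte, had log2 fold changes of 0.63 (SE 0.50) and 0.42 (SE 0.48) and passed in neither fit. Kmt2a had 2, 0, 0 and 0 counts in the morula sums and 1, 13, 9 and 4 in the blastocyst sums, in the order control and NKX1-2 wells of replicate 1, then of replicate 2, and was too low for the stage fits. Setd1a, whose exons overlap those of other genes on the same strand over 51.9% of their bases, passed in neither.

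Among the H3K9 methyltransferases, Ehmt2, the catalytic partner in the dimethylating pair with Ehmt1, fell. Its levels were 50.3 and 38.8 CPM in control and 37.9 and 41.6 CPM in NKX1-2 wells of the morula, and 26.7 and 16.1 CPM and 23.5 and 14.0 CPM in the blastocyst, without overlap. The log2 fold change was -1.08 (SE 0.33, adjusted p = 0.0102) in control and -1.10 (SE 0.30, adjusted p = 0.0064) in NKX1-2 wells. Without blastocyst replicate 2 it was -0.71 (adjusted p = 0.138) in control and -0.76 (adjusted p = 0.112) in NKX1-2 wells, and without morula replicate 1 the control call ended as well (adjusted p = 0.131).

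Ehmt1 itself did not pass, with -0.75 (SE 0.41, adjusted p = 0.144) in control and 0.09 (SE 0.31, adjusted p = 0.83) in NKX1-2 wells. Suv39h2, which trimethylates H3K9 in heterochromatin, rose in control wells from 5.91 and 6.39 to 13.9 and 15.3 CPM (log2 fold change 1.26, SE 0.45, adjusted p = 0.0269). Setdb2 rose there from 5.07 and 4.56 to 13.9 and 14.5 CPM (1.56, SE 0.46, adjusted p = 0.00932). Both calls ended without either morula plate (adjusted p from 0.0673 to 0.173), that of Suv39h2 also without blastocyst replicate 2 (adjusted p = 0.113). In NKX1-2 wells their log2 fold changes were 0.63 (SE 0.47) and 0.50 (SE 0.44), and neither passed. Setdb1, the H3K9 methyltransferase that silences retroviral elements, had every blastocyst sum (18.0 to 26.7 CPM) above every morula sum (9.13 to 16.9 CPM), with log2 fold changes of 0.89 (adjusted p = 0.0711) and 0.48 (adjusted p = 0.253).

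Suz12 was the only tested PRC2 subunit of the set (Ezh1, Ezh2, Eed, Suz12) to pass. PRC2 trimethylates H3K27, and Suz12 holds its core together. Its levels were 132 and 114 CPM in control and 137 and 129 CPM in NKX1-2 wells of the morula, and 226 and 197 CPM and 179 and 196 CPM in the blastocyst, with all blastocyst sums above all morula sums. The stage effect was 0.79 (SE 0.20, adjusted p = 0.00238) in control and 0.50 (SE 0.16, adjusted p = 0.0169) in NKX1-2 wells. The control call ended without morula replicate 2 (adjusted p = 0.0913), and the NKX1-2 call without any of the 4 plates (adjusted p from 0.0605 to 0.123).

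The catalytic subunit Ezh2 had 126 to 157 CPM in the morula and 100.3 to 144 CPM in the blastocyst sums, with log2 fold changes of -0.26 (SE 0.20) and -0.19 (SE 0.18). Eed, which reads the mark and stimulates the enzyme, had log2 fold changes of 0.00 (SE 0.21) and 0.13 (SE 0.17). Both ranges overlapped between the stages. Ezh1, the paralog of Ezh2, was low, at 4.56 to 11.4 CPM in the morula and 7.66 to 17.4 CPM in the blastocyst.

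Dot1l, the H3K79 methyltransferase, fell in control wells from 104 and 94.9 to 59.7 and 39.0 CPM (log2 fold change -1.02, SE 0.25, adjusted p = 0.00233). In NKX1-2 wells it had 90.8 and 78.2 CPM in the morula and 79.1 and 68.2 CPM in the blastocyst, which overlap (log2 fold change -0.20, SE 0.20, adjusted p = 0.441). The difference of these 2 stage effects is the same contrast as the difference of the morpholino effects given later, and it did not pass (adjusted p = 0.534). Setd5 rose in control wells (0.78, SE 0.29, adjusted p = 0.0362), a call that ended without either morula plate or without blastocyst replicate 1 (adjusted p from 0.127 to 0.262). Kmt5a fell in NKX1-2 wells (log2 fold change -0.45, SE 0.16, adjusted p = 0.0324), and without any of the 4 plates this call ended (adjusted p from 0.0792 to 0.16). Setd2, which trimethylates lysine 36 of histone H3, passed in neither fit (0.16, SE 0.28, and 0.47, SE 0.20). Setd6, which methylates proteins other than histones, fell in NKX1-2 wells (-2.09, SE 0.45, adjusted p = 0.00102). Without blastocyst replicate 1 its value was -1.71 (adjusted p = 0.0619).

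Of the demethylases, 13 were tested in control wells, where 2 rose and 3 fell, and 12 in NKX1-2 wells, where 2 rose. The shares of all genes that passed were 41.7% and 45.9%. Kdm2b, a demethylase that binds CpG islands and recruits a Polycomb complex, had 25.8 and 23.3 CPM in control and 19.9 and 22.9 CPM in NKX1-2 wells of the morula. In the blastocyst it had 69.3 and 63.5 CPM and 55.6 and 56.8 CPM, far above all morula sums. The log2 fold change was 1.44 (SE 0.27, adjusted p = 0.000184) in control and 1.39 (SE 0.25, adjusted p = 0.00023) in NKX1-2 wells.

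Kdm5b, which removes H3K4 methylation, had 119.6 and 118 CPM in control and 92.0 and 108 CPM in NKX1-2 wells of the morula, and 238 and 136 CPM and 182 and 159 CPM in the blastocyst. The stages did not overlap, and the control wells of blastocyst replicate 1 were the highest. The stage effect was 0.65 (SE 0.23, adjusted p = 0.0254) in control and 0.77 (SE 0.17, adjusted p = 0.00148) in NKX1-2 wells. Without blastocyst replicate 1 the control value was 0.20 (adjusted p = 0.493) and without blastocyst replicate 2 it was 1.03 (adjusted p = 1.56e-05). The control call also ended without either morula plate (adjusted p = 0.11 and 0.129), and the NKX1-2 call ended without blastocyst replicate 1 (adjusted p = 0.0574).

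Kdm8 fell in control wells from 15.6 and 19.2 to 7.46 and 1.53 CPM (log2 fold change -2.06, SE 0.55, adjusted p = 0.00423), on 7 and 2 counts in the blastocyst. Without blastocyst replicate 2 its value was -1.18 (adjusted p = 0.11), and without blastocyst replicate 1 it was -3.44. Kdm1a, the flavin-dependent H3K4 demethylase of the CoREST complex, fell in control wells (-0.67, SE 0.27, adjusted p = 0.0465), as did Kdm3b, an H3K9 demethylase (-0.71, SE 0.25, adjusted p = 0.0235), and in NKX1-2 wells their log2 fold changes were -0.24 (SE 0.23) and -0.31 (SE 0.22). The Kdm1a call ended without any of the 4 plates (adjusted p from 0.0651 to 0.318), and that of Kdm3b without either morula plate or blastocyst replicate 2 (adjusted p from 0.0727 to 0.165). Kdm3b shares 24.6% of its exon bases with a gene on the other strand. Kdm4a, Kdm4c, Kdm5a and Kdm6b, the last a demethylase of H3K27, passed in neither fit, and Kdm1b, known for its role in the oocyte, was near 5 CPM or lower in most sums.

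**Figure D3:**
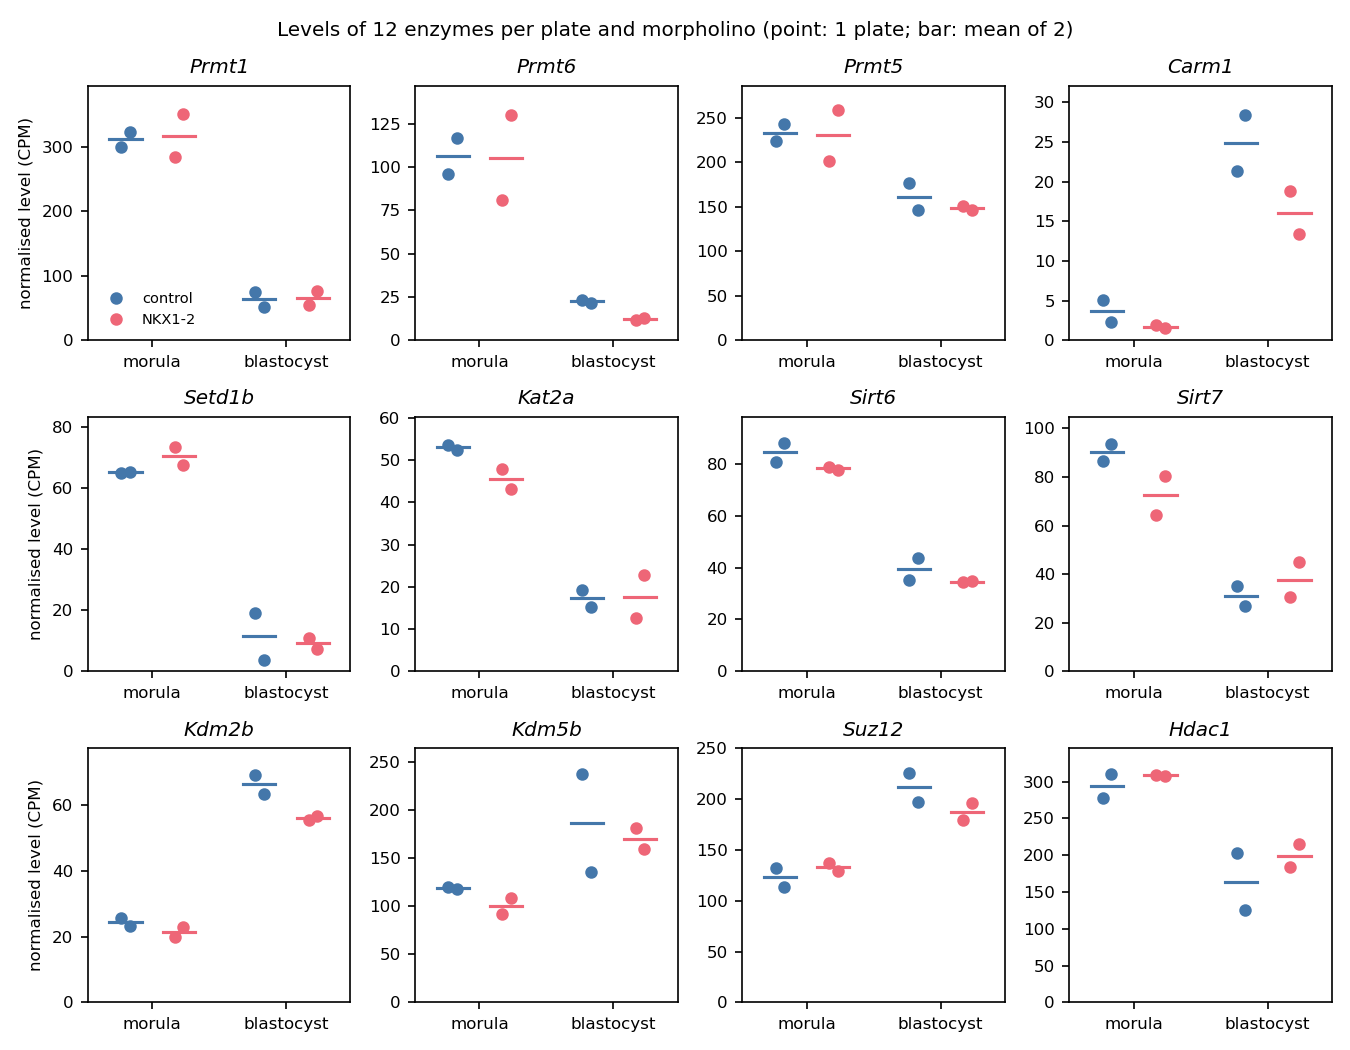
TMM-scaled CPM of 12 members in control (blue) and NKX1-2 wells (red) of each plate, with a bar at the mean of the 2 plates; each panel has its own axis from 0. In 8 panels the morula points lie above all blastocyst points, and in those of Carm1, Kdm2b, Kdm5b and Suz12 below them.

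Acetyltransferases passed in 2 of 9 tested members in each fit, and both fell, beside 41.7% and 45.9% of all genes that passed. Kat2a, the catalytic subunit of the SAGA and ATAC coactivators, had 53.7 and 52.5 CPM in control and 47.9 and 43.2 CPM in NKX1-2 wells of the morula, and 19.2 and 15.3 CPM and 12.5 and 22.7 CPM in the blastocyst. The stages lay well apart, and the log2 fold change was -1.62 (SE 0.31, adjusted p = 0.00022) in control and -1.34 (SE 0.30, adjusted p = 0.00148) in NKX1-2 wells. Without blastocyst replicate 1 the NKX1-2 value was -0.98 (adjusted p = 0.0654).

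Kat8, which acetylates lysine 16 of histone H4, had 54.5 to 77.4 CPM in the morula and 25.6 to 48.6 CPM in the blastocyst sums, without overlap (-0.94, SE 0.28, adjusted p = 0.00935 in control and -0.85, SE 0.27, adjusted p = 0.0151 in NKX1-2 wells). The control call ended without morula replicate 2 (adjusted p = 0.092). The NKX1-2 call ended without morula replicate 2 (adjusted p = 0.123) or blastocyst replicate 2 (-0.48, adjusted p = 0.246), and the value was -1.29 without blastocyst replicate 1. The broad coactivators Ep300 and Crebbp did not pass, with log2 fold changes of -0.39 (SE 0.38) and 0.04 (SE 0.25) in control wells and of -0.10 (SE 0.31) and 0.33 (SE 0.21) in NKX1-2 wells. Kat5, the catalytic subunit of the NuA4 complex, had every blastocyst sum (8.03 to 12.3 CPM) below every morula sum (15.3 to 19.2 CPM), with adjusted p-values of 0.144 and 0.0794.

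Hdac1 was the only class I deacetylase of the 3 tested to pass, and it fell in both fits. It had 278 and 311 CPM in control and 309 and 308 CPM in NKX1-2 wells of the morula, and 203 and 126 CPM and 183 and 215 CPM in the blastocyst. All blastocyst sums were lower, and the control wells of replicate 2 were the lowest. The log2 fold change was -0.85 (SE 0.21, adjusted p = 0.00231) in control and -0.62 (SE 0.15, adjusted p = 0.00242) in NKX1-2 wells. It was -0.51 without blastocyst replicate 2 in control wells (adjusted p = 0.0513) and -0.50 without blastocyst replicate 1 in NKX1-2 wells (adjusted p = 0.0655). Hdac2, its partner in the NuRD, SIN3 and CoREST complexes, had log2 fold changes of 0.28 (SE 0.20, adjusted p = 0.279) and 0.28 (SE 0.16, adjusted p = 0.171), and Hdac3 of 0.52 (SE 0.35) in each fit.

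Of the sirtuins, deacetylases that depend on NAD, the nuclear Sirt6 and the nucleolar Sirt7 fell, and no tested sirtuin passed as higher. In control wells 3 of the 5 tested had log2 fold changes above 0. Sirt6 had 77.8 to 88.1 CPM in the morula and 34.5 to 43.6 CPM in the blastocyst sums. Its log2 fold change was -1.07 (SE 0.25, adjusted p = 0.0017) in control and -1.17 (SE 0.22, adjusted p = 0.00037) in NKX1-2 wells. Sirt7 had 64.4 to 93.5 CPM in the morula and 26.8 to 44.8 CPM in the blastocyst sums. Its log2 fold change was -1.54 (SE 0.27, adjusted p = 6.47e-05) in control and -0.93 (SE 0.24, adjusted p = 0.0048) in NKX1-2 wells, the latter -0.68 without blastocyst replicate 1 (adjusted p = 0.119). For both the stages were fully separate. Sirt1, the best known nuclear sirtuin, had log2 fold changes of 0.20 (SE 0.30) and -0.16 (SE 0.26).

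The share of wells with a count was taken for Prmt1, Prmt6, Setd1b and Carm1. It rests on the same counts as the sums and adds no independent evidence. Prmt1 had a count in 100% of kept wells in each morula sum and in 67.4% to 86.4% of those in the blastocyst sums. With every well thinned to 4000 counts, these shares were 68.8% to 76.6% and 9.3% to 27.9%. Prmt6 was counted in 87.5% to 97.9% of morula wells and in 23.4% to 39.5% of blastocyst wells, thinned 33.3% to 42.6% and 4.65% to 6.82%. Setd1b was counted in 87.5% to 93.8% and in 11.6% to 32.6% of wells, thinned 18.8% to 33.3% and 2.13% to 9.3%. Wells of the morula held more counts (medians of 41251 to 48648 per well) than those of the blastocyst (22391 to 37602), and after thinning the stages remained apart for these 3 genes. Carm1 was counted in 6.25% to 20.8% of morula wells and in 34.9% to 62.8% of blastocyst wells, against the difference in depth. Thinned, its shares of 0% to 4.26% and 2.27% to 12.8% overlapped.

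Start regions are shown for 2 members that fell and 3 that rose, to set their base composition side by side. The sequences are from RefSeq (GRCm38.p6), read 5′ to 3′ on the gene's strand and limited to stretches upstream of a start that overlap no annotated exon. Capitals mark the GC box, GGGCGG or its reverse complement CCGCCC, overlapping matches included. Prmt1 is at chr7:44986569-44986670 (minus), Kat2a at chr11:100712468-100712717 (minus), Kdm2b, at an internal start, at chr5:122900368-122900617 (minus), Suz12 at chr11:79992856-79993105 (plus) and Kdm5b at chr1:134559928-134560170 (plus).
Prmt1: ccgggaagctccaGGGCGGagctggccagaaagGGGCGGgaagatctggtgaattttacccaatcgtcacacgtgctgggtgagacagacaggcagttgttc
Kat2a: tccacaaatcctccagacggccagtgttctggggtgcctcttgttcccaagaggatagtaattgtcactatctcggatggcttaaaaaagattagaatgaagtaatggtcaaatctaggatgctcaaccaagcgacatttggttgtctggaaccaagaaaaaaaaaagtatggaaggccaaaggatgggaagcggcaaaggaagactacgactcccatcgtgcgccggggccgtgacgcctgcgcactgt
Kdm2b: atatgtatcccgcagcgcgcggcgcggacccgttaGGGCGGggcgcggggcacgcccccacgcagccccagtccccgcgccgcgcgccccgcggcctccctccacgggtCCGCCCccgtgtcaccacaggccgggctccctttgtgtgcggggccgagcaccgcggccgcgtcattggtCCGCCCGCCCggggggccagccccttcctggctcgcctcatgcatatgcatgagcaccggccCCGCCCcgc
Suz12: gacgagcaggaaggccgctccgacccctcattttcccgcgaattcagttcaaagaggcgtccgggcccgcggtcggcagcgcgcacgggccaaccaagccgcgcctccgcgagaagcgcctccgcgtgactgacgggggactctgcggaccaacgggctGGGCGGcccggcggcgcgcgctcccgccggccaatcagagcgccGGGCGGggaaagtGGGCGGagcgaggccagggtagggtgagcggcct
Kdm5b: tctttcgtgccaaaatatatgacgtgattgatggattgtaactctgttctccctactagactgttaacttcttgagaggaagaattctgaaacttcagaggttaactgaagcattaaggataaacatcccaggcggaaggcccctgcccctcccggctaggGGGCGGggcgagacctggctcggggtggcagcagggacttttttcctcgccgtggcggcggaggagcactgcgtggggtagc
The printed stretch of Kdm2b holds 5 GC boxes, that of Suz12 3, that of Kdm5b 1 and that of Kat2a none. The stretch of Prmt1 is shorter (102 bases) and holds 2, while its full 250 bases upstream hold 4. Kdm2b has 4 listed start regions, and the other internal one holds 6 GC boxes while those near the gene's 5′ end hold 0 and 1. Of 89 start regions matched for 66 members, counted over the full 250 bases upstream, 62.9% hold a GC box on either strand, beside 42.6% of 21262 protein-coding start regions. The shares with CCAAT were 40.4% and 35.4%, with the ETS sequence CCGGAAG 12.4% and 8.98%, and with the homeodomain core TAATTA 1.12% and 4.3%. Several start regions can belong to the same gene, and these shares are descriptions without a test.

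Partner subunits of the enzymes moved between the stages about as often as other genes. Of 108 tested subunits from 9 groups of complexes, 15 rose and 23 fell in control wells (35.2%) and 21 rose and 29 fell in NKX1-2 wells (46.3%), beside 41.7% and 45.9% of all genes. In the list made for the deacetylase complex NuRD none of 7 tested genes passed as higher, while 3 fell in control (42.9%) and 5 in NKX1-2 wells (71.4%). Of all genes, 21.6% and 24.0% fell. With 7 genes this list is small, and its share was not tested. It leaves out Rbbp4 and Rbbp7, NuRD subunits that were listed with PRC2. Both passed as higher in NKX1-2 wells (0.55, SE 0.17, and 0.60, SE 0.19) and neither passed in control wells. Mta2, a NuRD scaffold that binds Hdac1 and Hdac2, fell by 1.82 (SE 0.24) on the log2 scale in control wells. Rcor2, which tethers Kdm1a in CoREST, fell by 2.45 (SE 0.28), and Trim28, which brings Setdb1 to retroviral elements, by 1.88 (SE 0.17).

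Among subunits that rose in control wells, Btg2, an antiproliferative factor that binds Prmt1, had a log2 fold change of 4.57 (SE 0.42) from low morula levels of 1.69 and 3.19 CPM. In NKX1-2 wells, with 11.1 and 4.67 CPM in the morula, its value was 2.58 (SE 0.35). In control wells Sap18, a SIN3 subunit with 16.7% of its 31-base stretches shared with other genes, had 3.46 (SE 0.22). Tada1, of SAGA, had 3.25 (SE 0.55) there, from low morula levels of 2.53 and 0.913 CPM. Of 33 tested histone-modifying enzymes outside the set, 9 rose and 6 fell in control wells (45.5%). Of 32 tested, 7 rose and 6 fell in NKX1-2 wells (40.6%). The shares of all genes were close, at 41.7% and 45.9%. The largest changes in control wells were those of Riox2 (2.05), the acetyltransferase Hat1 (1.78) and the H3K36 methyltransferase Nsd2 (1.74), and in the other direction Riox1 (-1.49), the Polycomb ubiquitin ligase Ring1 (-1.39) and N6amt1 (-1.36). Nsd2 was low, at 2.96 and 2.28 CPM in the morula and 8.53 and 9.19 CPM in the blastocyst. Neither Nsd2 nor N6amt1 was called in NKX1-2 wells.

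No member passed for the NKX1-2 morpholino in any of the 4 comparisons. With edgeR, 0 of 68 tested members passed in the morula, in blastocysts, averaged over the stages or for the difference between them, beside 0.552%, 0.727%, 2.9% and 0.0184% of all 10873 genes. At an unadjusted p under 0.05 the members counted 6, 6, 7 and 4, or 8.82%, 8.82%, 10.3% and 5.88%, beside 10.7%, 13.7%, 16.6% and 6.43% of all genes. DESeq2 and limma voom each called 0 members in all 4 as well. The median log2 fold change of the members was -0.05 for morulae, -0.11 for blastocysts, -0.06 for their average and 0.00 for the difference. In simulated counts for genes drawn from all those tested, true 2-fold changes passed in 52%, 33%, 58% and 12% of cases in the same order. True 4-fold changes passed in 88%, 75%, 91% and 59%. A 2-fold change could thus often be missed, most of all for the difference. Genes left unchanged in these counts passed as well. They made up 17 of 157 calls in the morula and 12 of 120 in the blastocyst. Averaged over the stages they made up 14 of 163 calls, and for the difference 14 of 85. Whether the calls in the deposited data hold a similar share was not tested.

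With the morula plates fitted alone, 2 of 66 members passed, Hdac5 and Setd4, beside 8.03% of all genes in that fit. Both also passed in the morula without blastocyst replicate 1 (adjusted p = 0.0285 and 0.0132) and without blastocyst replicate 2 (adjusted p = 0.0292 and 0.0124). Wells that held Xist but no count of a Y-linked gene numbered 28 and 27 of 48 kept control wells and 11 of 48 and 26 of 47 NKX1-2 wells in the morula replicates. In the blastocyst replicates they numbered 15 and 6 of 43 control wells and 35 of 47 and 21 of 44 NKX1-2 wells. Such wells were thus fewer with the NKX1-2 morpholino in morula replicate 1, about as many in morula replicate 2, and more on both blastocyst plates. Other wells held both Xist and Y-linked counts and fall outside this subset. They numbered 19 control and 21 NKX1-2 wells in blastocyst replicate 2, 8 and 7 in blastocyst replicate 1, and 3 to 6 in each morula sum. In the wells with Xist but no Y-linked count alone, 0 of 54 members passed in any of the 4 comparisons (edgeR), beside 0.0602%, 0.0602%, 0.193% and 0% of all genes. The X-linked members did not pass: Hdac6 and Suv39h1 had average log2 fold changes of -0.63 (SE 0.48) and -0.34 (SE 0.27), and Hdac8 was too low to be tested.

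For the 11 members above 100 CPM in a stage, the average effects lay between -0.45 (Prmt6) and 0.19 (Hdac1), with standard errors of 0.10 to 0.18. Their 95% intervals together spanned -0.83 to 0.47 on the log2 scale. For these genes larger average changes were thus outside the intervals, each taken alone.

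Kat6b, the catalytic subunit of the MORF acetyltransferase complex, had the lowest adjusted p on average. Its levels in control and NKX1-2 wells were 41.0 and 56.7 CPM in morula replicate 1, 50.6 and 67.3 in morula replicate 2, 52.2 and 71.3 in blastocyst replicate 1 and 53.6 and 72.2 CPM in blastocyst replicate 2. The NKX1-2 wells were higher on all 4 plates, and the average log2 fold change was 0.44 (SE 0.13, adjusted p = 0.0908). Without blastocyst replicate 1 the adjusted p was 0.0456 at a value of 0.44, and in wells with Xist but no Y-linked count the value was 0.32 (adjusted p = 0.736). Its paralog Kat6a had 19.9 and 25.7, 21.4 and 27.2, 33.1 and 26.6, and 29.9 and 36.8 CPM in the same order, higher on 3 of 4 plates.

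Hdac5, a class IIa deacetylase that binds MEF2 factors, differed in opposite directions in the stages. In the morula it had 8.87 and 7.76 CPM in control and 16.1 and 17.5 CPM in NKX1-2 wells, and in the blastocyst 7.46 and 3.83 CPM and 0.784 and 2.01 CPM. NKX1-2 wells were higher on both morula plates and lower on both blastocyst plates, the latter on 1 and 3 counts. The morpholino effect was 1.01 (SE 0.36, adjusted p = 0.277) in the morula and -1.86 (SE 0.77, adjusted p = 0.3) in the blastocyst. The difference between the stages was -2.86 (SE 0.85, adjusted p = 0.516), and it was -4.16 without blastocyst replicate 2 (adjusted p = 0.0346). The blastocyst value was -0.91 without blastocyst replicate 1 and -3.15 without blastocyst replicate 2. A count was found in 33.3% and 31.2% of control and in 60.4% and 59.6% of NKX1-2 wells of the morula, and the thinned shares were all at most 8.51%. From morula to blastocyst, Hdac5 fell in NKX1-2 wells (-3.49, SE 0.57, adjusted p = 7.86e-05) and did not pass in control wells (-0.61, SE 0.53, adjusted p = 0.376). Hdac4, of the same class, had 5.91 and 3.65 CPM in control and 11.9 and 7.39 CPM in NKX1-2 wells of the morula (1.00, SE 0.42, adjusted p = 0.379).

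Dot1l was lower in NKX1-2 wells on both morula plates and higher on both blastocyst plates. Its log2 fold change was -0.24 (SE 0.16) in the morula and 0.60 (SE 0.21, adjusted p = 0.192) in the blastocyst, and the difference was 0.84 (SE 0.26, adjusted p = 0.534). Without blastocyst replicate 1 the difference was 1.05 (adjusted p = 0.0277). Prmt6 was lower in NKX1-2 wells of both blastocyst plates (-0.86, SE 0.32, adjusted p = 0.237) and had -0.04 (SE 0.17) in the morula. Kdm4a, an H3K9 and H3K36 demethylase, had 5.33 and 4.59 CPM in control and 11.8 and 12.7 CPM in NKX1-2 wells of the blastocyst, which do not overlap (1.31, SE 0.51, adjusted p = 0.26). Kmt5a had 184 and 141 against 135 and 119 CPM there (-0.35, SE 0.15, adjusted p = 0.335).

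Setd4, a SET-domain methyltransferase, had 44.8 and 36.5 CPM in control and 24.9 and 25.7 CPM in NKX1-2 wells of the morula, and the NKX1-2 wells were lower on both plates. The log2 fold change was -0.68 (SE 0.24, adjusted p = 0.261), and in the morula plates alone -0.68 (adjusted p = 0.0121). In wells with Xist but no Y-linked count it was -0.36 (adjusted p = 0.997). Its average value was -0.45 (SE 0.20, adjusted p = 0.251), and it was -0.21 without blastocyst replicate 1 and -0.68 without blastocyst replicate 2 (adjusted p = 0.0293). Sirt4, a mitochondrial sirtuin, had 5.07 and 7.30 CPM in control and 2.68 and 2.72 CPM in NKX1-2 wells of the morula (-1.16, SE 0.52, adjusted p = 0.425). Carm1 averaged -0.85 (SE 0.35, adjusted p = 0.23) and was lower in NKX1-2 wells on all 4 plates.

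Among the 5 members with the smallest p for the difference between the stages were also Kdm7a, a demethylase of H3K9 and H3K27 (-0.80, SE 0.37, adjusted p = 0.772), and Setd1a (-1.25, SE 0.59, adjusted p = 0.773). Without morula replicate 2 the value of Kdm7a was -0.52.

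**Figure D4:**
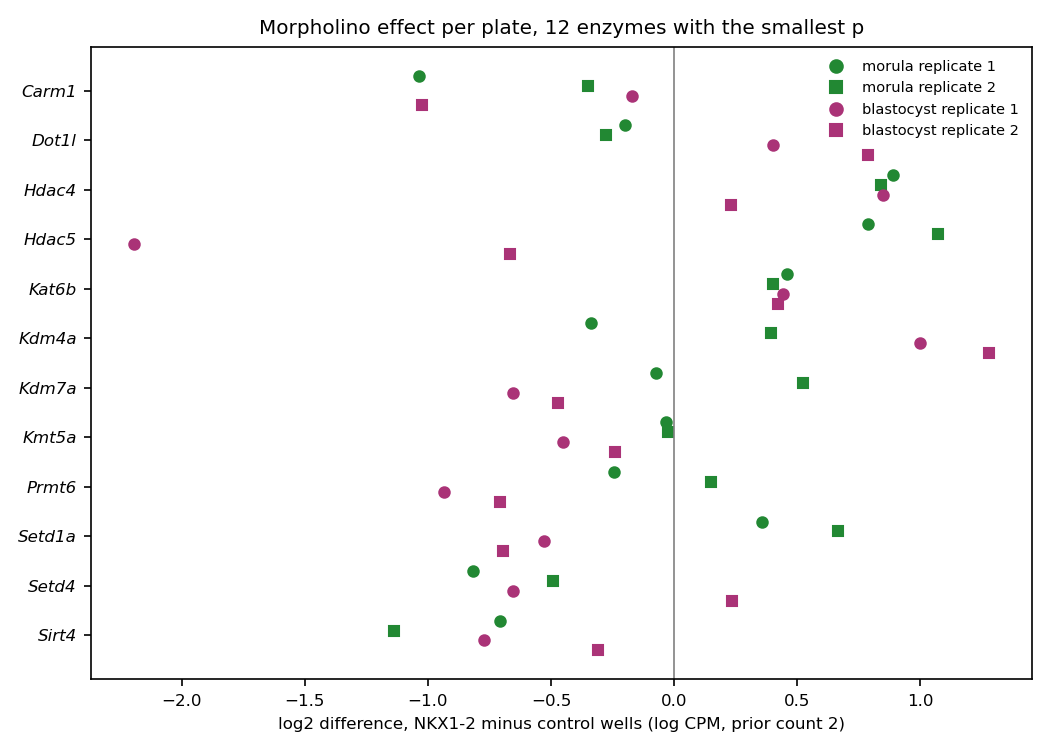
Log2 difference between NKX1-2 and control wells on each plate (log CPM with a prior count of 2) for the 12 members with the smallest p in any of the 4 morpholino comparisons; green marks morula and purple blastocyst plates. Kat6b lies between 0.40 and 0.46 on all 4 plates, and Hdac5 lies above 0 on both morula and below 0 on both blastocyst plates.

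Of the 68 tested members, 12 (17.6%) had the same direction on all 4 plates, beside 24.0% of all 10873 genes. Hdac4, Kat6b, Kdm2a and Kdm5a were higher in NKX1-2 wells on every plate, and Carm1, Ezh2, Hdac3, Kat7, Kdm2b, Kmt5a, Sirt4 and Sirt6 were lower. Of 110 tested partner subunits, 0 passed in the morula (edgeR), beside 0.552% of all genes, and 2 rose in the blastocyst, which is 1.82% of the list beside 0.727% of all genes. These were Sgf29, the SAGA subunit that reads H3K4 methylation (1.15, SE 0.20, adjusted p = 0.0128), and Rbbp7, a histone chaperone shared by PRC2, NuRD and SIN3 (0.58, SE 0.12, adjusted p = 0.0429). On average over both stages, Ruvbl2 (0.76, SE 0.13), Supt3 (0.56, SE 0.13) and Sgf29 (0.53, SE 0.13) rose and Ing2, a SIN3 subunit that reads H3K4 methylation (-0.75, SE 0.18), fell, which is 3.64% of the list beside 2.9% of all genes. Of 34 tested enzymes outside the set, Smyd5 fell on average by 0.45 (SE 0.11), which is 2.94% of the list beside 2.9% of all genes.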

How the data were processed

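The authors deposited whole-number counts per gene and well, as sparse matrices with barcode and gene names, and a table that assigns each barcode to a morpholino. That assignment names no plate and was applied to every plate alike. Per the labels' protocols, wells were lysed in detergent, polyadenylated RNA was captured and Illumina TruSeq libraries were made, while the sample descriptions name 10x Genomics. Per the submitters' processing notes, TopHat2, GRCm38 and mm10 were used. Those sources do not name the counting tool, its strand setting or the unit counted (read or molecule), so no counting interval is given.

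Members and lists were chosen with earlier results of these data known. Of 384 wells, 368 reached 2000 detected genes and were summed by plate and morpholino. A run of 341 genes with 0 counts in both morula plates, which holds 0 members, was left out. Genes were filtered with filterByExpr, scaled with TMM and tested in edgeR 4.0.16 (robust quasi-likelihood, Benjamini-Hochberg adjustment over all genes tested). Morpholino effects came from 1 fit of the 8 sums in which each plate was a block, since both morpholinos share each plate (correlation of deviations 0.257 in the morula and -0.000704 in the blastocyst). Stage effects came from the 4 control and the 4 NKX1-2 sums separately. Fits were tested on simulated data. Nothing ties wells to embryos.

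Named were called members reaching 20 CPM in a group and changed the same way in both plate pairs, up to 10 per direction, the 5 smallest p in each morpholino comparison, a list of well-known enzymes, the 5 highest per kb in each stage, X-linked members, and up to 3 partners per direction and list; other members were named after their values were seen. Exon lengths, coordinates and overlaps are from GENCODE (GRCm38), with 31-base stretches compared between genes, and start regions from RefSeq. Alternatives used DESeq2 1.42.0, limma 3.58.1 voom, other scaling, filters and wells, and each plate left out. R 4.3.3, Python 3.11.15, pandas 2.3.3, numpy 2.4.6 and matplotlib 3.10.9 were used.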

Additional observations from a re-analysis of the deposited data

How the results depend on the processing

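For the morpholino, 0 members passed with RLE size factors, DESeq2, limma voom, without the low-count filter, with every well, with a minimum of 4000 genes per well, without the highest well of each sum and in wells with Xist but no Y-linked count. Apart from the last setting, the shares of all genes are not given here, so these counts describe the members alone. With the morula plates alone 2 passed, beside 8.03% of all genes. Leaving out each plate gave 0 to 2 members in the morula (0.119% to 7.03% of all genes), 0 to 2 in the blastocyst (0.92% to 5.32%), 0 to 4 on average (0.855% to 8.98%) and 0 to 2 for the difference (0.0367% to 2.1%). Between the stages, the 23 members of control wells became 12 with DESeq2 (beside 26.2% of all genes), 9 of 50 in wells with Xist but no Y-linked count (beside 22.8%) and 13 to 26 with a plate left out (26.2% to 37.8%). The 19 members of NKX1-2 wells became 9 to 17 with a plate left out (19.5% to 34.7%). With a plate left out, a stage or group rests on 1 sum that is assumed to vary like the others. The cause of these shifts was not tested.

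The replicate block, which pairs plates of equal number across the stages, gave 20 members in control and 20 in NKX1-2 wells. Same-numbered sums did not deviate together (correlations of 0.0251 and -0.00201), so they share only a number. With no replicate block, 0 members passed in each of the 4 morpholino comparisons. The shares of all genes in these fits are not given here, so the counts describe the members alone. All 42 stage results of members kept their direction in every setting that gave a value, and 16 also kept their call: Carm1, Kdm2b, Prmt1, Prmt6, Setd1b and Sirt6 in both fits, Kat2a, Sirt7 and Dot1l in control wells and Hdac5 in NKX1-2 wells. The 20 morpholino results of named members kept their direction. Depth limits members under 5 CPM, which rest on few counts per sum.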
